A study of Mus musculus with 18 samples.

Results

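Genes for 8 dual-specificity phosphatases (Dusp1, Dusp2, Dusp4, Dusp5, Dusp6, Dusp8, Dusp10 and Dusp14) and 2 Sprouty proteins (Spry2 and Spry4), 10 of the 24419 gene symbols in the table, were followed in the mouse heart after acute myocardial infarction (AMI). The members were taken by symbol, and the set was chosen by the levels of Dusp1, which had been seen to rise at 10 min in these same mice. The comparison of the 10 min group with the control group is therefore given as a description, without a test. RNA was sequenced from the hearts of 18 C57BL/6 mice, 8 weeks old, all anaesthetised with sodium pentobarbital. The mice were male according to the study's methods. The proximal left anterior descending coronary artery was ligated, and hearts were taken at 10 min, 1 h, 6 h, 24 h and 72 h, with 3 mice per group and 3 mice in a control group. The text of the study calls the control mice sham and the tissue infarcted left ventricle, where the labels say only control and heart. Levels are FPKM as deposited, which count fragments per length of transcript and per mapped total, so they are scaled for transcript length and can be compared between genes.

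The dual-specificity phosphatases remove phosphate from both the threonine and the tyrosine of activated MAP kinases and so switch off ERK, p38 and JNK signalling. Sprouty proteins act further upstream and restrain the path from receptor tyrosine kinases through RAS to ERK. Many of these genes are themselves transcribed when the pathway is active, which makes them a negative feedback, and Dusp1 is a classical immediate early gene of stress and growth factor responses. In the heart, ERK, p38 and JNK signalling takes part in growth, survival and stress responses of cardiomyocytes.

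On the GRCm38.p6 assembly (mm10), RefSeq places Dusp1 on chromosome 17 at 26505591 to 26508472 (minus strand), Dusp5 on chromosome 19 at 53529145 to 53541809 (plus strand) and Dusp8 on chromosome 7 at 142079487 to 142095907 (minus strand). A promoter entry was found for 8 of the 10 genes in the RefSeq table. Dusp4 and Spry4 had none. The 250 bases before the transcription start are shown for 3 genes whose levels behaved differently after ligation, Dusp1 (highest at 1 h), Dusp5 (highest at 6 h) and Dusp8 (no call at 1 h or 6 h). They cover chr17:26508473-26508722, chr19:53528895-53529144 and chr7:142095285-142095534, each printed on the strand of its gene. The start used for Dusp8 lies inside the span given for the whole gene. Capitals mark matches to the cyclic AMP response element TGACGTCA, to its first 5 letters TGACG, which the longer motif contains, and to the CArG box, the binding motif of serum response factor.
Dusp1: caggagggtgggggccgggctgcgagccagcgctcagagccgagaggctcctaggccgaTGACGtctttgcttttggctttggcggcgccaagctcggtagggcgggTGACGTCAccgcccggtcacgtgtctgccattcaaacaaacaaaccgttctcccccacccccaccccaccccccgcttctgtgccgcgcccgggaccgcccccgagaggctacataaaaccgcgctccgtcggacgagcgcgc
Dusp5: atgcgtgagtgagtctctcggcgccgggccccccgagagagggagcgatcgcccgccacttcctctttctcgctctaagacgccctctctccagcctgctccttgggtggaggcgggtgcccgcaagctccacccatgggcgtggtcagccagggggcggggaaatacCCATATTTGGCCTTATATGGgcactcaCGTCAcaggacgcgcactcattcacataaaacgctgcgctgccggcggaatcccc
Dusp8: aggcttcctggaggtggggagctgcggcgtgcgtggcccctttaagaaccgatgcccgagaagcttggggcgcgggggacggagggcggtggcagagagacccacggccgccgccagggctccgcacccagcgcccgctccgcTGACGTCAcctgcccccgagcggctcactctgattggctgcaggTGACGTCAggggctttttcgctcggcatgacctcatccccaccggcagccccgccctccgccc
In Dusp1 the full element began 143 bases before the start, and a further TGACG began 191 bases before it. Dusp8 held the full element 2 times, beginning 107 and 63 bases before the start. Dusp5 held 2 adjacent CArG boxes, beginning 82 and 72 bases before the start, and 1 TGACG on the other strand, 55 bases before it. Both strands were searched for these motifs and for the AP-1 motif TGACTCA, and none of the 4 was found in the windows of Dusp2, Dusp6, Dusp10, Dusp14 or Spry2. Over 32851 RefSeq promoter windows of the same length, TGACGTCA was present in 1.55%, TGACG in 17.8%, TGACTCA in 4.46% and the CArG box in 1.47%. Dusp1 and Dusp8 thus shared the full element but not their course after ligation, as described next.

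Before ligation, Dusp1 was the most abundant of the 10 transcripts. It averaged 44.4 ± 6.09 FPKM in the control mice (SD, n = 3), which was 52.3 ± 3.08% of the summed FPKM of the 10 genes. Spry4 (11.6 ± 1.52 FPKM), Dusp6 (9.10 ± 0.788 FPKM) and Dusp8 (7.86 ± 0.171 FPKM) came next. Spry2 averaged 4.26 FPKM, Dusp10 3.16, Dusp5 2.66 and Dusp4 1.15 FPKM. Dusp14 and Dusp2 lay at the bottom, with means of 0.257 and 0.197 FPKM. The summed level of the 10 genes averaged 84.7 FPKM in control mice. It was 149 FPKM in the 10 min group, 321 in the 1 h group and 201 in the 6 h group, and then 143 and 94.6 FPKM in the 24 h and 72 h groups. The share of Dusp1 in that sum was 66.0 ± 0.912% at 10 min and 78.6 ± 2.26% at 1 h, and it was 40.8 ± 2.80% at 72 h.

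A gene entered the tests if it reached 1 FPKM in at least 1 of the 18 mice, which 13333 symbols and 9 of the 10 members did. Dusp14 reached at most 0.896 FPKM and was not tested. Dusp2 passed only through mice with AMI, so a difference from control was built into its passing. Fold changes are differences of mean log2(FPKM + 1), which understate the change of genes near or below 1 FPKM. Adjusted p-values are two-sided ones from limma, adjusted after Benjamini and Hochberg over every gene in the comparison, and a gene is called at an adjusted p under 0.05. The 4 comparisons with control share the same 3 control mice and are not independent of each other. The 10 min rise of Dusp1, by which the set was chosen, was also seen against these control mice. The tests of Dusp1 against control are therefore not independent of the choice of the set. In bulk tissue, fewer cells of a type and less RNA per cell cannot be told apart.

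Each mouse correlated with the others of its group at a mean of 0.972 to 0.995 in log2(FPKM + 1), and the FPKM of a mouse summed to between 542418 and 600467. Cardiomyocyte markers were abundant in every mouse, at a summed level of 55765 to 59296 FPKM for 8 markers in control mice and 20429 to 25375 FPKM at 72 h. Sums at 72 h against control were 3430 to 4532 against 187 to 212 FPKM for 7 macrophage and monocyte markers, 3007 to 4109 against 225 to 251 FPKM for 6 fibroblast markers, 421 to 534 against 519 to 569 FPKM for 6 endothelial markers, and 318 to 430 against 227 to 261 FPKM for 5 smooth muscle and pericyte markers. T cell and B cell markers, with 2 of 6 and 2 of 4 past the filter, summed to at most 7.90 and 7.03 FPKM. The mice differed most in neutrophils: 6 markers summed to 2.56 to 5.28 FPKM in control mice, 5.90 to 24.5 at 10 min, 17.1 to 30.5 at 1 h and 54.9 to 67.8 FPKM at 72 h. At 6 h the same sum was 1001 FPKM in mouse 1, 117 in mouse 2 and 377 in mouse 3, and at 24 h it was 216, 45.2 and 996 FPKM in mice 1, 2 and 3. None of the markers in these lists was at 0 in all 3 mice of any group.

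**Figure D1:**
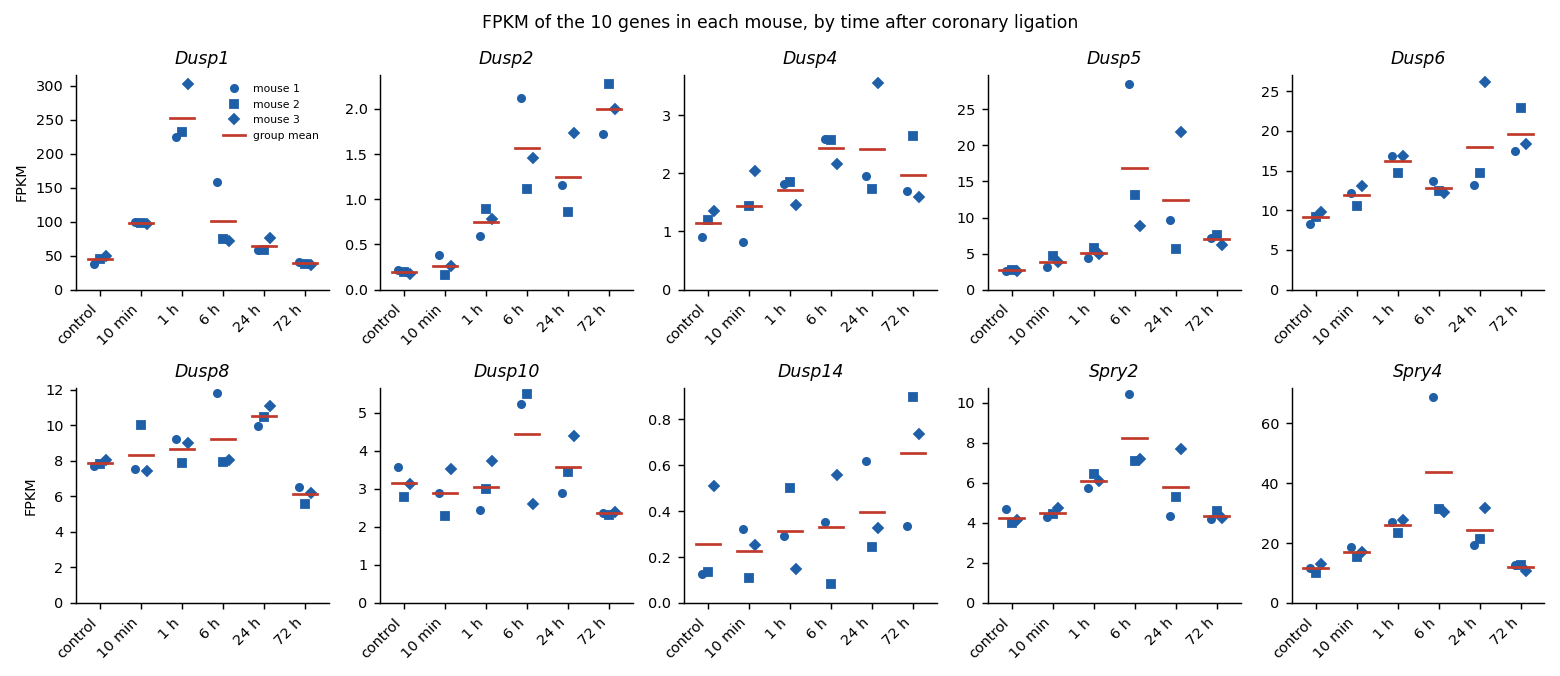
FPKM of the 10 genes in each of the 18 mice (vertical axes, starting at 0) by group (horizontal axes), with 1 symbol per mouse and a red line at the mean of the 3 mice. Dusp1 peaked at 1 h, Dusp5, Spry2 and Spry4 had their highest mean at 6 h, and Dusp2 and Dusp6 had theirs at 72 h; mouse 1 at 6 h and mouse 3 at 24 h often stood above their group.

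Within 10 min of ligation the levels of Dusp1 had moved apart from control without overlap. Dusp1 encodes a nuclear phosphatase that acts on p38, JNK and ERK. It stood at 37.8, 45.6 and 49.8 FPKM in control mice 1, 2 and 3, and at 100.3, 97.5 and 96.5 FPKM in the 10 min mice. The 10 min mice were close together and all above the control mice, and the ratio of the means was 2.21. Dusp5, Dusp6 and Spry4 also had all 3 mice of the 10 min group above all control mice, with log2 differences of 0.40, 0.35 and 0.52 beside 1.13 for Dusp1. Over all 13333 genes past the filter, 12.2% had the 10 min mice above the control mice without overlap and 8.13% had them below, so nothing is read from the number of members. The other 6 genes overlapped with control at 10 min, with log2 differences between -0.10 (Dusp10) and 0.15 (Dusp4).

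At 1 h after ligation, 5 of the 9 tested members were higher than in control and none was lower, where 0.669% of the 13300 genes tested were called higher and 0.0526% lower. Those called were Dusp1, Spry4, Dusp6, Dusp5 and Dusp2. The counts of members higher at 6 h, 24 h and 72 h, given below, also include Dusp2. It passed the filter only through mice with AMI, so no support is read from its part in these counts. Dusp1 had the largest log2 fold change and Dusp2 the smallest of the 5, but with a pseudocount of 0.1 that of Dusp2 was 1.51 and came second. With all 18 mice in 1 fit, only Dusp1 was called among the members (adjusted p 0.0699 for Spry4, 0.128 for Dusp6, 0.301 for Dusp2 and 0.976 for Dusp5). That fit called 53 of 13333 genes. The median log2 fold change was 0.55 over the 9 members and -0.02 over all genes tested. At 6 h, 7 members were called higher and none lower, against 11.6% of genes higher and 16.8% lower in the whole table. At 24 h, 7 were again higher and none lower, against 26.2% and 11.4%. At 72 h, 4 members were higher and 2 lower, against 53.1% and 24.2%. Together 6 of 9 members and 77.3% of all genes were called at 72 h. After median-of-ratios scaling 3 members were higher and 4 lower at 72 h, with 75% of all genes called, and after quantile normalization 3 were higher and 5 lower, with 75.8% called. The same scalings left 5 and 4 members higher at 24 h, with 36.4% and 36.8% of all genes called. For the last 3 times the medians over the members were 0.79, 0.64 and 0.05, and over all genes -0.08, 0.13 and 0.29. The split of the calls in the whole table depended on the scaling: the share of calls that were higher was 40.9%, 69.8% and 68.7% for the 6 h, 24 h and 72 h groups as deposited, and 56.6%, 52.2% and 52.5% after median-of-ratios scaling. After quantile normalization it was 44.3%, 45.2% and 43.4%. These scalings moved the median of all genes at 72 h from 0.29 to 0.04 and to -0.10.

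**Figure D2:**
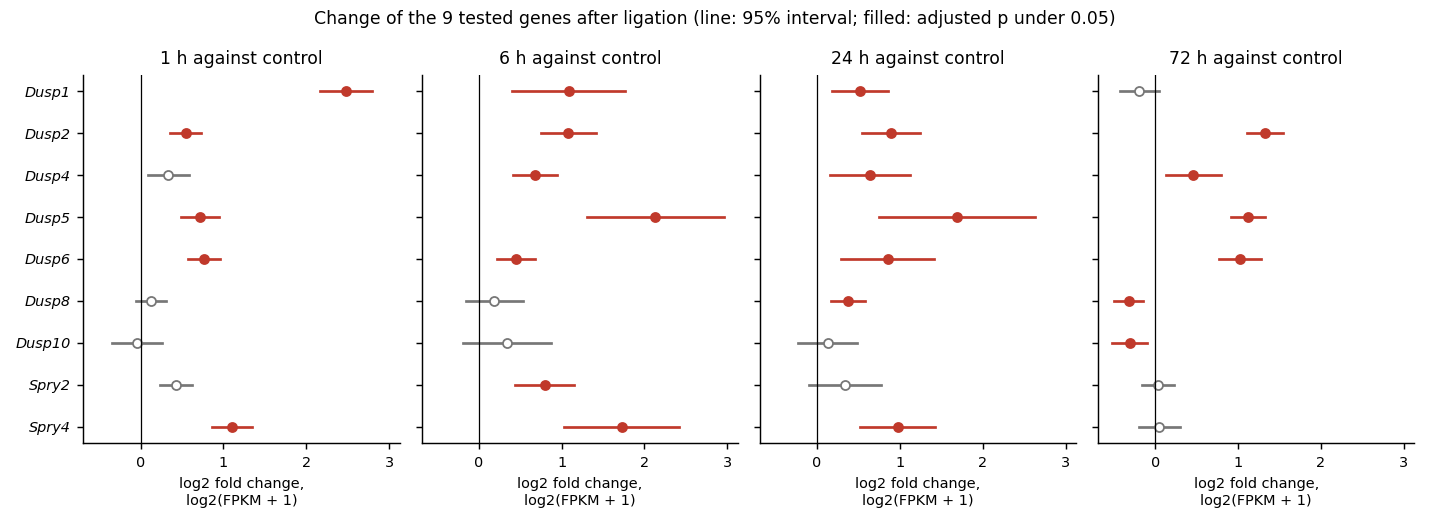
Log2 fold change of the 9 tested genes against control on the log2(FPKM + 1) scale, with 95% intervals, at 4 times after ligation; filled red points have an adjusted p under 0.05. Of the 9 genes, 5, 7 and 7 were called in the 1 h, 6 h and 24 h panels, all of them higher, and in the last panel 4 were called higher and 2 lower, with the levels as deposited.

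Dusp1 had its highest level at 1 h, with 224, 232 and 303 FPKM in the 3 mice, every one of them above all mice of the other groups. The ratio of the means to control was 5.70, and the log2 fold change was 2.48 (SE 0.14, adjusted p = 0.000117). At 6 h the mice differed widely, with 158.6 FPKM in mouse 1 and 74.7 and 71.6 FPKM in mice 2 and 3, all above control (log2 fold change 1.08, SE 0.29, adjusted p = 0.0312). Without mouse 1, which had the highest neutrophil marker sum, the log2 fold change at 6 h was 0.72 and the call remained (adjusted p = 0.00891). At 24 h the level was 58.4, 58.1 and 75.6 FPKM, still above control in 3 of 3 mice (0.52, SE 0.14, adjusted p = 0.0305). By 72 h it was 41.4, 37.4 and 36.9 FPKM and overlapped with control, with a log2 fold change of -0.19 and a 95% interval from -0.43 to 0.04 (adjusted p = 0.117). After median-of-ratios scaling or quantile normalization Dusp1 was called lower than control at 72 h, by -0.50 and -0.43, and lower too without control mouse 1 (-0.30). Calls at 6 h and 24 h were lost without any 1 of the control mice, with adjusted p between 0.0716 and 0.103 at 6 h and between 0.0543 and 0.106 at 24 h. The call at 6 h was also lost with no filter (0.0608), and the call at 24 h with either scaling or with all 18 mice in 1 fit (0.0556 to 0.0651).

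Between 1 h and 6 h, Dusp1 fell while Dusp5 and Dusp2 rose. The log2 difference of 6 h from 1 h was -1.39 for Dusp1 (SE 0.30, adjusted p = 0.0191), 1.42 for Dusp5 (SE 0.36, adjusted p = 0.0317) and 0.53 for Dusp2 (SE 0.15, adjusted p = 0.0487). Dusp2 was under 1 FPKM in every mouse at 1 h, so no support is read from its call. Over all genes in the comparison of 6 h with 1 h, 9.32% were called higher and 11.2% lower. The calls of Dusp1, Dusp5 and Dusp2 were lost without any 1 of the 1 h mice, and the number of members called was then 0. With no filter only the call of Dusp1 remained. That of Dusp2 was also lost without 6 h mouse 1 (0.38, adjusted p = 0.0833), without 6 h mouse 3 (0.078) and with a common FPKM sum (0.0556), and its value was 0.93 with a pseudocount of 0.1. The call of Dusp5 was also lost without 6 h mouse 2 (0.053). Spry4 at 0.62 (95% interval -0.06 to 1.295) and Dusp6 at -0.31 (-0.54 to -0.09) did not pass the test. The share of calls that were higher over all genes was 45.4%, and 58.9% with median-of-ratios scaling.

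Dusp5, a nuclear phosphatase specific for ERK, followed a later course than Dusp1. Its level was even among control mice, at 2.58, 2.77 and 2.64 FPKM, and was 3.14, 4.71 and 3.797 FPKM at 10 min and 4.39, 5.78 and 4.92 FPKM at 1 h. At 6 h it was 28.5 FPKM in mouse 1, 13.2 in mouse 2 and 8.88 in mouse 3, and the mice of the 24 h group had 9.72, 5.70 and 21.8 FPKM. Mice of these 2 groups spread over 3.21-fold and 3.83-fold, and the highest of each group was the mouse with the highest neutrophil marker sum. At 72 h the mice were close together again, at 7.17, 7.57 and 6.15 FPKM, above all control mice. The log2 fold changes against control were 0.72 at 1 h (SE 0.10, adjusted p = 0.0216), 2.13 at 6 h (SE 0.35, adjusted p = 0.00613), 1.69 at 24 h (SE 0.40, adjusted p = 0.0187) and 1.12 at 72 h (SE 0.09, adjusted p = 6.02e-06). After quantile normalization the value at 72 h was 0.64, still called. Without mouse 1 at 6 h the value was 1.69, and without mouse 3 at 24 h it was 1.21, both called. The call at 1 h was lost without any 1 of the control mice and without 1 h mouse 2 (adjusted p 0.0539 to 0.108), and with no filter on low levels (0.0673). At 24 h it was lost without any 1 of the control mice (0.0612 to 0.068).

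Dusp6, the cytoplasmic phosphatase of ERK, was above control at every time after ligation. It stood at 8.27, 9.20 and 9.83 FPKM in control mice, 12.2, 10.5 and 13.1 FPKM at 10 min and 16.9, 14.8 and 16.9 FPKM at 1 h. None of these later mice overlapped with control. At 6 h it was 13.8, 12.4 and 12.2 FPKM. The 24 h mice had 13.2, 14.6 and 26.2 FPKM and the 72 h mice 17.5, 22.9 and 18.4 FPKM. Mouse 3 at 24 h was the highest of all 18 mice. The log2 fold change was 0.77 at 1 h (SE 0.09, adjusted p = 0.00662), 0.45 at 6 h (SE 0.10, adjusted p = 0.0152), 0.85 at 24 h (SE 0.24, adjusted p = 0.0305) and 1.02 at 72 h (SE 0.11, adjusted p = 3.62e-05). Without mouse 3 the value at 24 h was 0.56 (adjusted p = 0.00695), and after quantile normalization that at 72 h was 0.66 (adjusted p = 0.000572). At 6 h the call was lost without control mouse 1 or 2 (adjusted p 0.0693 and 0.0561) and with all 18 mice in 1 fit (0.0649), and at 24 h without any 1 of the control mice (0.0736 to 0.103) or with no filter (0.0557).

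Dusp2 and Dusp4, nuclear phosphatases of which Dusp2 is best known from activated leukocytes, were low throughout. Dusp2 was at 0.219, 0.198 and 0.175 FPKM in control mice and 0.382, 0.160 and 0.256 FPKM at 10 min. It was at 0.588, 0.889 and 0.784 FPKM at 1 h, and at 2.12, 1.11 and 1.46 FPKM at 6 h. From 1 h on, no mouse overlapped with control. The values at 24 h were 1.16, 0.861 and 1.73 FPKM, and at 72 h 1.72, 2.27 and 2.003 FPKM, where the ratio of the means to control was 10.1. Its log2 fold changes were 0.55 at 1 h (SE 0.08, adjusted p = 0.0297), 1.08 at 6 h (SE 0.14, adjusted p = 0.00286), 0.89 at 24 h (SE 0.15, adjusted p = 0.00745) and 1.32 at 72 h (SE 0.10, adjusted p = 3.21e-06). The call at 1 h was lost without any 1 of the control mice, and without 1 h mouse 2 or 3 (adjusted p 0.0586 to 0.136). With a pseudocount of 0.1 the values of Dusp2 were 1.51, 2.44, 2.14 and 2.82 in the 4 groups, and after quantile normalization that at 72 h was 0.84. Macrophage and monocyte markers, as given before, were highest at 72 h as well, and their part in the level of Dusp2 was not tested.

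For Dusp4 the control mice had 0.902, 1.19 and 1.36 FPKM, and the 10 min mice 0.813, 1.44 and 2.05 FPKM. At 1 h it was 1.81, 1.85 and 1.46 FPKM and at 6 h 2.59, 2.57 and 2.16 FPKM. Levels at 24 h were 1.96, 1.74 and 3.56 FPKM, and at 72 h 1.70, 2.64 and 1.60 FPKM. The mice from 1 h on were all above the control mice. Dusp4 did not pass at 1 h (0.34, 95% interval 0.09 to 0.58, adjusted p = 0.276) and rose at 6 h (0.68, SE 0.11, adjusted p = 0.00634), 24 h (0.64, SE 0.21, adjusted p = 0.0469) and 72 h (0.46, SE 0.15, adjusted p = 0.0181). The call at 24 h was lost with no filter, with either scaling, without any 1 of the control mice and without 24 h mouse 1 (adjusted p 0.0529 to 0.147), and without 24 h mouse 3 the value was 0.41. At 72 h it was lost without control mouse 1 (0.0654) and with median-of-ratios scaling (0.27, adjusted p = 0.104), and with quantile normalization the value was -0.09. With a pseudocount of 0.1 the values of Dusp4 at 6 h, 24 h and 72 h were 1.04, 0.96 and 0.72.

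Dusp8 and Dusp10, which act mainly on JNK and p38, were the 2 members called lower at 72 h. Dusp8 was at 7.73, 7.80 and 8.05 FPKM in control mice, 7.56, 10.0 and 7.44 FPKM at 10 min and 9.20, 7.86 and 8.99 FPKM at 1 h. It was at 11.8, 7.91 and 8.03 FPKM at 6 h, 9.97, 10.4 and 11.1 FPKM at 24 h and 6.55, 5.59 and 6.20 FPKM at 72 h. Mice at 10 min, 1 h and 6 h overlapped with control, those at 24 h were all above it and those at 72 h all below it. The log2 fold change was 0.13 at 1 h (95% interval -0.05 to 0.30, adjusted p = 0.545), 0.19 at 6 h (-0.16 to 0.54, adjusted p = 0.36), 0.38 at 24 h (SE 0.09, adjusted p = 0.0174) and -0.32 at 72 h (SE 0.08, adjusted p = 0.00489). After median-of-ratios scaling and quantile normalization the value at 72 h was -0.59 and -0.79, and at 24 h 0.24 and 0.18. The call at 24 h was lost with quantile normalization (adjusted p = 0.099) and without any 1 of the control mice (0.0633 to 0.0762).

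Dusp10 was at 3.57, 2.77 and 3.14 FPKM in control mice and overlapped with them at every time up to 24 h. It was at 2.89, 2.28 and 3.52 FPKM at 10 min, 2.44, 3.001 and 3.73 FPKM at 1 h and 5.22, 5.49 and 2.60 FPKM at 6 h. Mouse 3 at 6 h lay below all control mice and the other two above them, and without that mouse Dusp10 was called higher (0.62, adjusted p = 0.013), against 0.34 with all mice (95% interval -0.19 to 0.87, adjusted p = 0.281). At 24 h it was at 2.88, 3.44 and 4.40 FPKM (0.13, 95% interval -0.22 to 0.48, adjusted p = 0.516). At 72 h its 3 mice lay within 1.02-fold of each other, at 2.37, 2.32 and 2.38 FPKM, below all control mice (-0.30, SE 0.09, adjusted p = 0.0144). After median-of-ratios scaling and quantile normalization the value was -0.52 and -0.87. The call was lost without control mouse 1 (adjusted p = 0.0596) and with all 18 mice in 1 fit (0.172).

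Dusp14, an atypical dual-specificity phosphatase, was at 0.128, 0.134 and 0.509 FPKM in control mice and at 0.333, 0.896 and 0.734 FPKM at 72 h. Its lowest and highest levels at the times between were 0.0842 and 0.620 FPKM. All groups overlapped with control.

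Of the Sprouty genes, Spry4 rose at 1 h, 6 h and 24 h and Spry2 at 6 h, and both overlapped with control at 72 h. Spry4 was at 11.6, 10.1 and 13.1 FPKM in control mice, 18.8, 15.4 and 17.0 FPKM at 10 min and 27.0, 23.5 and 27.7 FPKM at 1 h. At 6 h it was at 69.0 FPKM in mouse 1 and at 31.5 and 30.4 FPKM in mice 2 and 3, all above every mouse at 1 h. Its levels at 24 h were 19.3, 21.4 and 31.9 FPKM, and at 72 h 12.7, 12.7 and 10.7 FPKM, inside the control range. The log2 fold changes were 1.11 at 1 h (SE 0.10, adjusted p = 0.00233), 1.72 at 6 h (SE 0.30, adjusted p = 0.00695), 0.97 at 24 h (SE 0.19, adjusted p = 0.0115) and 0.05 at 72 h (95% interval -0.20 to 0.29, adjusted p = 0.696). Without mouse 1 the value at 6 h was 1.35 (adjusted p = 0.000915), and the call at 24 h was lost without control mouse 2 (adjusted p = 0.0505). At 72 h the sign depended on the scaling, at -0.24 (adjusted p = 0.0654) after median-of-ratios scaling and -0.36 (adjusted p = 0.014) after quantile normalization.

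Spry2 was at 4.67, 3.97 and 4.13 FPKM in control mice and 4.28, 4.47 and 4.75 FPKM at 10 min. All mice at 1 h (5.74, 6.43 and 6.11 FPKM) and at 6 h (10.4, 7.09 and 7.18 FPKM) were above control. At 1 h the change of 0.43 did not pass after adjustment (95% interval 0.24 to 0.63, adjusted p = 0.0928), and at 6 h it was called (0.79, SE 0.15, adjusted p = 0.0101, and 0.63 without mouse 1). At 24 h the mice had 4.36, 5.29 and 7.71 FPKM and overlapped with control (0.34, 95% interval -0.09 to 0.77, adjusted p = 0.174). At 72 h they had 4.21, 4.61 and 4.27 FPKM (0.03, 95% interval -0.16 to 0.22, adjusted p = 0.752), but after median-of-ratios scaling and after quantile normalization Spry2 was called lower, by -0.22 and -0.49.

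In 2 groups a single mouse set much of the spread of the members. Mouse 1 at 6 h had the highest level of its group in 8 of the 10 genes, where 32.6% of all tested genes had theirs in that mouse. Mouse 3 at 24 h had the highest in 9 of the 10, where 44.5% of all tested genes did. These were the mice with neutrophil marker sums of 1001 and 996 FPKM, each more than any other mouse of its group. The same mice had the lowest cardiomyocyte sums of their groups (45889 FPKM at 6 h and 34611 at 24 h), the highest macrophage and monocyte sums (238 and 698 FPKM) and the highest endothelial sums (680 and 541 FPKM). Without these mice, 7 members were called higher at 6 h and 7 at 24 h. Over all genes 1294 of 13318 and 3411 of 13324 were then called higher. The part of these cell types in the levels of the members was not tested. In the other groups, mouse 2 at 72 h had the highest level in 7 of the 10 genes and control mouse 3 in 6. Of all tested genes 41.2% and 41.5% had their highest level of the group in these 2 mice.

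**Figure D3:**
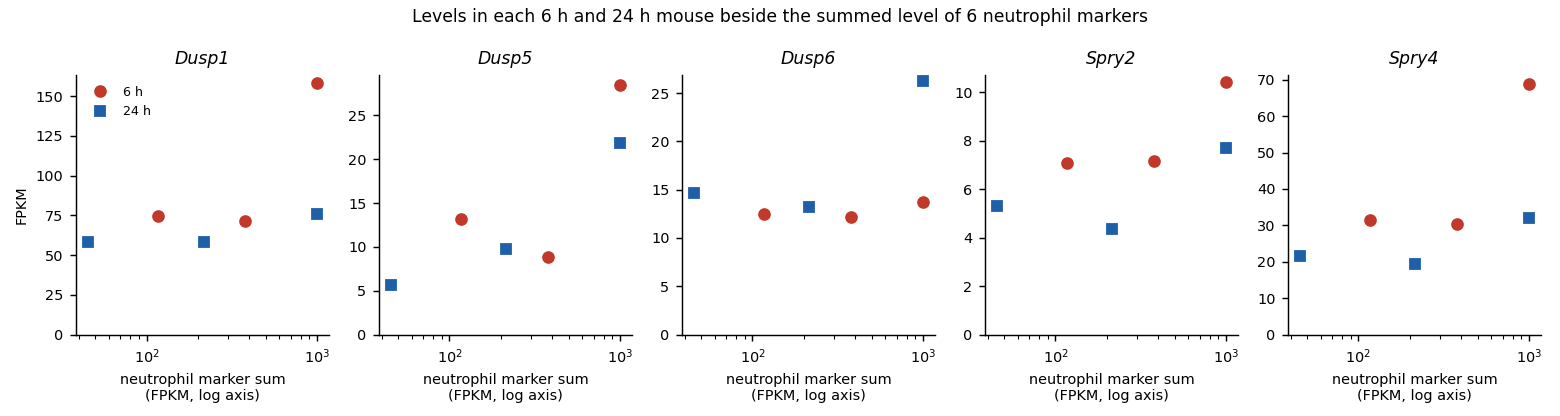
FPKM of Dusp1, Dusp5, Dusp6, Spry2 and Spry4 (vertical axes, starting at 0) against the summed FPKM of 6 neutrophil markers (horizontal log axis) in the 3 mice at 6 h (red circles) and the 3 at 24 h (blue squares). The mouse of each group with the highest marker sum, 1001 FPKM at 6 h and 996 FPKM at 24 h, also had the highest level of each of the 5 genes in its group. At 6 h mouse 3 (sum 377 FPKM) was below mouse 2 (117 FPKM) in Dusp1, Dusp5, Dusp6 and Spry4, and above it in Spry2. At 24 h mouse 1 (216 FPKM) was below mouse 2 (45.2 FPKM) in Dusp6, Spry2 and Spry4, and above it in Dusp1 and Dusp5. Of the members not shown, Dusp10 at 6 h and Dusp14 at both times were highest in another mouse.

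From 6 h to 24 h no member was called in either direction by limma, at an adjusted p under 0.05 or at an unadjusted p under 0.05, while 12.5% of all genes were called higher and 1.94% lower. The values lay between -0.75 for Spry4 (95% interval -1.52 to 0.02) and 0.40 for Dusp6 (-0.16 to 0.96). With all 18 mice in 1 fit, Dusp1, Spry2 and Spry4 were called lower at 24 h than at 6 h, with adjusted p = 0.0492, 0.024 and 0.0191. That fit called 5850 of 13333 genes, 4848 higher and 1002 lower. In the fits of the 6 mice, the share of calls that were higher over all genes was 86.6% as deposited. It was 52.3% and 57.9% after the median-of-ratios and the quantile scaling.

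From 24 h to 72 h, 4 members fell and none rose, where 13.5% of all genes were called lower and 29.7% higher. The log2 fold change was -0.93 for Spry4 (SE 0.19, adjusted p = 0.00645), -0.71 for Dusp1 (SE 0.13, adjusted p = 0.00429), -0.69 for Dusp8 (SE 0.10, adjusted p = 0.00178) and -0.43 for Dusp10 (SE 0.14, adjusted p = 0.039). No mouse of the 72 h group overlapped with the 24 h group for these 4 genes. The share of all genes without overlap between these times was not computed, so nothing is read from this. The call of Dusp10 was the least firm, as it was lost without 24 h mouse 2 or 3, without any 1 of the 72 h mice, and with no filter, a common FPKM sum or all 18 mice in 1 fit (adjusted p 0.0555 to 0.107), and its value was -0.78 after quantile normalization. Dusp2 at 0.43 (95% interval 0.05 to 0.81) and Dusp6 at 0.17 (-0.41 to 0.74) were not called with all mice, and without 24 h mouse 3 both were called higher, at 0.58 and 0.46. Without 24 h mouse 2, Dusp5 was called lower, at -0.98. The share of calls that were higher over all genes was 68.8%, against 53.4% and 45.6% after the same scalings.

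The other genes of the pathway were counted from lists written by hand. Of the other Sprouty and Spred genes, inhibitors of the same pathway, 4 of 5 could be tested. Spry1 rose at 1 h, from 9.88, 11.8 and 10.3 FPKM in control mice to 16.9, 19.7 and 18.0 FPKM (0.72, SE 0.09, adjusted p = 0.0097), a call lost without control mouse 1 or 3 (adjusted p 0.0502 and 0.0597). The 6 h mice had higher Spry1, Spred1 and Spred3 (0.68, 0.70 and 1.17), and the 24 h mice Spred1 and Spred3 (0.58 and 2.16). The calls at 6 h were lost without control mouse 1 or 3 for all 3 genes, without control mouse 2 or with no filter for Spred1, and without 6 h mouse 2 for Spry1 (adjusted p 0.0509 to 0.107). That of Spred1 at 24 h was lost without any 1 of the control mice, without 24 h mouse 2 and after quantile normalization (0.0553 to 0.0988). At 72 h Spred3, Spred1 and Spry1 were higher (2.13, 1.06 and 0.36) and Spred2 was lower (-0.49), where the call of Spry1 was lost after median-of-ratios scaling (adjusted p = 0.416) and its sign turned after quantile normalization (-0.03). Of the other MAP kinase phosphatases, 2 of 3 could be tested, and Dusp7, the most abundant of them with a mean of 31.9 FPKM in control mice, fell at 6 h and 72 h (-0.39 and -0.32). The call of Dusp7 at 6 h was lost without control mouse 2 or 3 (adjusted p 0.0731 and 0.0776). Dusp7 is, like Dusp6, a cytoplasmic phosphatase of ERK. Of 10 tested atypical dual-specificity phosphatases (15 listed), none was called at 1 h. In the 6 h group 1 was higher and 2 were lower, in the 24 h group 1 and 1, and in the 72 h group 2 and 4.

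The nuclear end of the pathway was represented by 13 transcription factors and early genes that respond to ERK. Of these, all tested, 5 were higher in the 1 h group, 8 in the 6 h group and 9 in each of the 24 h and 72 h groups, and none was lower in any of these. Over all genes tested 0.669%, 11.6%, 26.2% and 53.1% were called higher at these times. The factors Fos, Fosl1, Egr2, Egr3, Myc and Etv4 were under 1 FPKM in every control mouse and, like Dusp2, passed only through mice with AMI, so no support is read from the count over the list. Without these 6, the number higher was 2, 3, 3 and 3. Fos rose from 0.355, 0.697 and 0.537 FPKM in control mice to 63.4, 51.3 and 86.3 FPKM at 1 h (5.45, SE 0.18, adjusted p = 1.01e-05). Egr1 rose from 4.12, 5.43 and 5.03 to 125.4, 105.3 and 159.1 FPKM (4.47, SE 0.15, adjusted p = 1.01e-05). Both are immediate early genes, as is Ier2, which rose by 2.37 (SE 0.17, adjusted p = 0.00052). Among 10 tested EGF and FGF ligands and receptors (14 listed) none was called at 1 h. In the 6 h group 5 were higher and in the 24 h group 4, and the 72 h group had 6 higher and 4 lower. Of the 10, 3 were under 1 FPKM in every control mouse, and without them 3 were higher at each of these times. Hbegf, a ligand of the EGF receptor, was at 5.27, 4.85 and 5.15 FPKM in control mice and at 4.96, 5.45 and 5.27 FPKM at 1 h. At 6 h it was at 106.1, 68.3 and 45.4 FPKM (3.53, SE 0.27, adjusted p = 0.000475). Of the signalling kinases, 10 MAP kinases were tested, of which 0, 1, 2 and 4 were higher in the 4 groups from 1 h to 72 h, and 0, 1, 0 and 2 were lower. Of these 10, 1 was under 1 FPKM in every control mouse, and without it 0, 0, 2 and 3 were higher. Of 7 MAP kinase kinases 0, 1, 3 and 1 were higher and 0, 2, 1 and 0 lower, and of 6 RAS and RAF genes 0, 0, 2 and 3 were higher and 0, 2, 1 and 2 lower. Shares over all genes, given before, were 53.1% higher and 24.2% lower at 72 h.

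**Figure D4:**
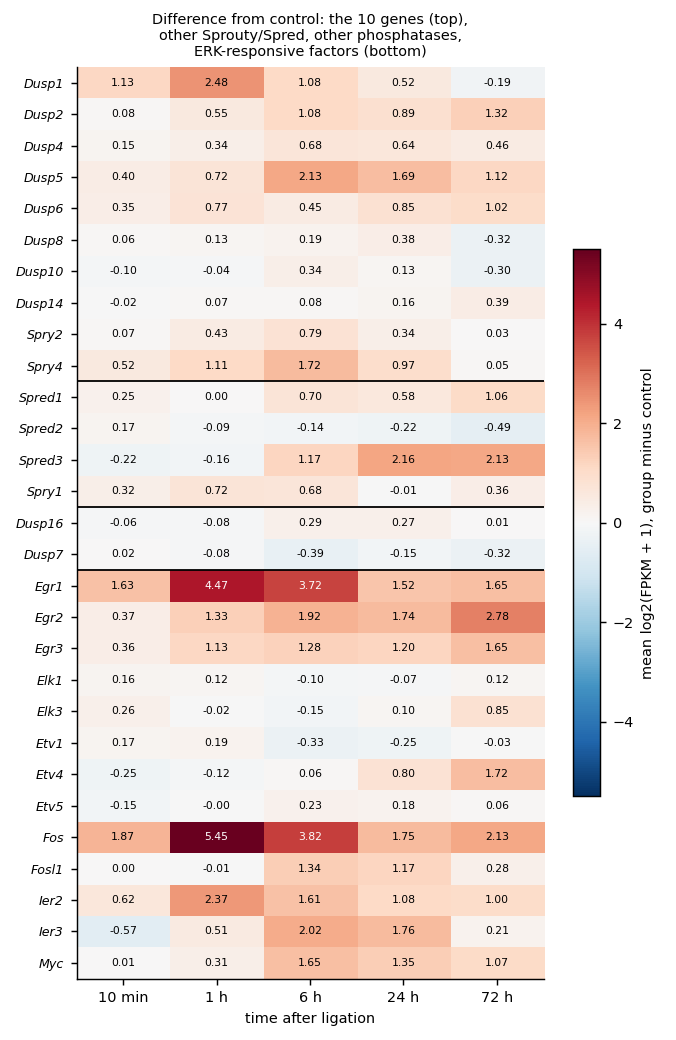
Difference of mean log2(FPKM + 1) from control (colour and printed values; red higher, blue lower) at each time after ligation for the 10 genes and, below the black lines, the other Sprouty and Spred genes, the other MAP kinase phosphatases and the ERK-responsive factors. At 1 h Fos (5.45), Egr1 (4.47) and Dusp1 (2.48) had the largest differences of the genes shown, as deposited; column 10 min is a description without a test.

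Among the members, Dusp8 and Dusp10 had the most similar courses, with a root mean square difference of 0.169 over the 5 log2 differences from control, followed by Dusp4 and Spry2 with 0.246. For the 4 members with the largest change, the nearest genes in the whole table were searched among those with a group mean of at least 5 FPKM. They were Ddit4, Sgk1 and Sik1 for Dusp1 (0.453, 0.552 and 0.614, of 9361 genes compared), and Nr4a3, Abra and Ppp1r15a for Spry4 (0.257, 0.299 and 0.302). For Dusp5 they included Sdc4 and Arid5a (0.232 and 0.275), and for Dusp2 they were H3f3b, Ptger4 and Eps8 (0.055, 0.164 and 0.171). The matches of Dusp2 depend on the 1 FPKM added before taking logs. Its control mean was 0.197 FPKM, and that of H3f3b was 179 FPKM. At 6 h the log2 differences were 1.08 for Dusp2 and 1.01 for H3f3b. The value of Dusp2 was 2.44 with a pseudocount of 0.1, and its ratio of means was 7.92, so no shared course is read from these matches. No gene came as near to Dusp1 as the nearest genes came to the other 3 members. The distances were not scaled for the size of the change, so they can be larger for a member that changed more. They also include the earliest time after ligation, when the rise of Dusp1 served to choose the set. Nothing is therefore read from the larger distances of Dusp1. Reads of Dusp5, Dusp8 and Spry4 cannot be told from those of overlapping genes on the opposite strand (AC137853.2 at Dusp5, Gm32786 at Dusp8, Gm27369 and Gm27804 at Spry4), since the library kit is not stated to keep the strand. Overlaps were searched only within the RefSeq spans. GENCODE gives much longer spans for Dusp1 (26505590 to 26562128) and Dusp10 (184013302 to 184075636), and the parts beyond RefSeq were not searched.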

How the data were processed

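Libraries of polyA RNA from 18 mouse hearts were sequenced, and groups were taken from the sample titles. Per the study's methods and the labels, the authors removed adaptors with cutadapt 1.18, aligned to mm10 with HISAT2 2.1.0 and computed FPKM with StringTie 1.3.4d. The annotation is not given in the sources used here. The deposited FPKM table has 24419 symbols and 18 columns, of which 4 have misspelled titles that still match 1 sample each. It has no counts, so depth is unknown, no counting error was computed, and precision comes from the spread between 3 mice.

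FPKM were used without further scaling. Symbols with at least 1 FPKM in at least 1 mouse (13333) were tested with limma 3.58.1 (R 4.3.3, eBayes with a variance trend) on log2(FPKM + 1), on the 6 mice of each comparison, after leaving out genes with no variance in them. Two-sided p-values were adjusted after Benjamini and Hochberg over every gene in the comparison. The authors' Cuffdiff comparison needs the reads and was not repeated. Steps were tested on simulated data. Replicates are separate mice whose litters and batches are not stated, so p-values measure the spread between these mice. The labels do not say whether replicate numbers pair the mice. The tests were unpaired, with a replicate block as an alternative.

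The members, gene lists and tests were chosen with earlier results of these data known. Named were the 10 members, the other Sprouty, Spred and MAP kinase phosphatase genes that were called, up to 3 called genes of a pathway list with the largest change, and the 3 genes nearest in course to each of 4 members, of which 1 is not reported here. Alternatives were quantile normalization, median-of-ratios scaling, a common FPKM sum, no variance trend, a replicate block, a fit of all 18 mice, another pseudocount (0.1), another filter (on the mean) or none, and leaving out each mouse. Leaving out the mice with the most neutrophil markers together, and alternatives for 10 min, were chosen after seeing the data. Positions, promoters and overlaps came from RefSeq (GRCm38.p6) and GENCODE M21, and plots from Python 3.11.15 with matplotlib 3.10.9.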

Additional observations from a re-analysis of the deposited data

Results flagged for a closer look

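The 6 h group differed from the 1 h group in 3 members by a direct limma test between these times (adjusted after Benjamini and Hochberg over every gene), and in both directions: Dusp1 by -1.39, Dusp5 by 1.42 and Dusp2 by 0.53 on the log2(FPKM + 1) scale. Over all genes 9.32% were called higher and 11.2% lower. For each of the 3 members all 3 mice at 6 h lay on the same side of all 3 mice at 1 h. This was also so for Dusp4, Dusp6, Spry2 and Spry4, which were not called. The share of all genes without overlap between these times was not computed, so nothing is read from it. The 3 calls were lost without any 1 of the 1 h mice. No support is read from that of Dusp2, which was under 1 FPKM in every mouse at 1 h.

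The 72 h group differed from the 24 h group in 4 members, all lower at 72 h: Spry4 by -0.93, Dusp1 by -0.71, Dusp8 by -0.69 and Dusp10 by -0.43. For each of them all 3 mice at 72 h lay below all 3 mice at 24 h. The share of all genes without overlap was not computed here either, so nothing is read from it. In this comparison 43.2% of all genes were called, with 29.7% higher and 13.5% lower. The call of Dusp10 was lost in several settings, as given before. With groups of 3 mice, single outlying values were not tested.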

How the results depend on the processing

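The number of members called moved by over 1.5 times in these settings. In the 1 h group it was 5, and 1 (Dusp1) with all 18 mice in 1 fit. In the 24 h group it was 7, and 4 after quantile normalization. For 6 h against 1 h it was 3, and 1 with no filter. For 24 h against 6 h it was 0, and 3 with all 18 mice in 1 fit. Over all genes these settings called 53 of 13333, 4904 of 13326, 2072 of 18080 and 5850 of 13333, in the same order. With 1 mouse left out, 3 to 5 members were called in the 1 h group, 5 to 8 in the 6 h group, 1 to 7 in the 24 h group and 5 to 6 in the 72 h group. Between successive times 0 to 4, 0 to 0 and 3 to 5 were called. Of the 13287 to 13330 genes tested, 72 to 177, 1640 to 4423, 1628 to 5839 and 9700 to 10186 were then called against control. Between successive times these calls over all genes were 820 to 3165, 2 to 2099 and 3839 to 7122. Without a control mouse, 1 or 2 members were left in the 24 h group, when the calls over all genes fell from 5012 to between 1628 and 2114. Leaving out together the 6 h and 24 h mice with the most neutrophil markers gave 0 calls among the members for 24 h against 6 h. Over all genes 815 of 13325 were then called, 633 higher and 182 lower.

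The replicate block gave 4, 7, 7 and 6 calls against control in order of time, and 2, 0 and 3 between successive times. Over all genes it called 85 of 13300, 2839 of 13321, 4182 of 13327 and 10215 of 13329 against control. It lost the calls of Dusp2 at 1 h (adjusted p = 0.104) and for 6 h against 1 h (0.0955), and of Dusp10 for 72 h against 24 h (0.0506). Same-numbered mice correlated at -0.327 to 0.415 in their deviations from the group mean, and 0 to 3 of the 6 mice in a comparison correlated best with their own number. Over all genes the block moved the calls for 24 h against 6 h from 1922 to 1, and for 6 h against 1 h from 2731 to 1754. With all 18 mice in 1 fit they were 5850 for 24 h against 6 h, and after median-of-ratios scaling and quantile normalization 771 and 642.

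The sign turned in 19 values of the tested comparisons. Turns of sign at the earliest time after ligation, which had no test, were not counted. After quantile normalization Dusp10 at 24 h was -0.0943, and at 72 h Spry1 was -0.0264, Dusp4 -0.0943, Spry2 -0.49 and Spry4 -0.36. After median-of-ratios scaling Spry2 was -0.22 and Spry4 -0.24 at 72 h. Dusp8 for 24 h against 6 h was -0.0399 after median-of-ratios scaling and -0.0391 after quantile normalization. With 1 mouse left out, Dusp10 at 1 h ranged from -0.161 to 0.068, Spry2 at 72 h from -0.00914 to 0.0862 and Spry4 at 72 h from -0.0412 to 0.133. Dusp8 for 6 h against 1 h ranged from -0.108 to 0.153, and Dusp4 for 24 h against 6 h from -0.27 to 0.0977. For 72 h against 24 h Dusp4 ranged from -0.332 to 0.0471 and Dusp6 from -0.0128 to 0.456. Of these only Dusp4 and Spry1 at 72 h were called in the values as reported. The cause was not tested. The table used here holds no counts, so the limit set by depth is unknown, and values under 1 FPKM (Dusp2 in control mice, Dusp14) are the least certain.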
